A study of Homo sapiens with 6 samples.

Results

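The apoptosis genes described here are 44 genes of the BCL2 family, the caspases, the mitochondrial death factors, the inhibitors of apoptosis and the death receptor pathway. They were picked by symbol from the deposited table of 74852 loci, and each of the 44 symbols was found at 1 locus. The rule used no measured value, although earlier results of these data were known when it was set. All 6 libraries came from MDA-MB-231, an established human cell line of triple-negative breast cancer. The 3 si-CTRL libraries came from cells that received a control pool of siRNAs without a target. The 3 si-SAM68 libraries came from cells that received a pool of 4 siRNAs against SAM68, the RNA-binding splicing factor encoded by KHDRBS1. Both groups were transfected in 2 rounds with a lipid reagent and, according to the sample labels, collected 24 h after the second round, while the methods of the study give another time. Silencing was transient and rested on 1 siRNA pool, with no rescue and no second pool among the samples analysed here.

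Apoptosis starts from inside the cell when BH3-only proteins free or activate the pore formers BAX and BAK1, which release cytochrome c and other factors from mitochondria. It starts from outside when ligands such as FAS ligand and TRAIL bind death receptors, which recruit FADD and caspase-8. Both routes end in effector caspases, and the anti-apoptotic BCL2 proteins, the decoy receptors, CFLAR and the IAP proteins hold them back. SAM68 is known for its action on the splicing of BCL2L1, whose long form (BCL-XL) protects cells and whose short form (BCL-XS) does not.

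The agents that define the groups were the siRNAs, which are shown because each can also pair with other RNAs through its seed. The sense strands are printed 5′ to 3′, and the capitals at positions 12 to 18 are the letters that pair with the seed (positions 2 to 8) of the antisense strand.
siSAM68_1: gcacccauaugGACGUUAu
siSAM68_2: gaaagagcgagUGCUGAUa
siSAM68_3: uaugauggaugAUAUCUGu
siSAM68_4: aaagaucucugUAUUGGGa
All 4 match the coding sequence of KHDRBS1 exactly. The gene (chr1:32479295-32526460, hg19) was read at 15660, 14483 and 14737 normalized reads in si-CTRL replicates 1 to 3 and at 583, 602 and 670 in si-SAM68 replicates 1 to 3. Its level fell by 4.60 ± 0.083 (SE) on the log2 scale (adjusted p = 2.1e-09), which left 4.13% of the control level.

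The libraries held 52625492 to 82568487 reads. In si-SAM68 replicate 2 the locus of the ribosomal RNA precursor took 15.1% of the reads, against 1.83% to 3.17% in the other 5. VIM, CD44 and EGFR, which mark this line, were read at 3138 or more normalized reads in every library, PGR was at 0, and ESR1, CDH1 and EPCAM stayed at 15.2 or fewer. ERBB2, whose RNA level alone does not define triple-negative status, was read at 2413 to 3447. The 7 leukocyte markers summed to 75.6 to 115 normalized reads in si-CTRL and 107 to 134 in si-SAM68, of which ITGAM made up most. Without ITGAM the sums were 8.75 to 19.4 and 11.1 to 18.4, and MS4A1 was at 0 in every library.

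Of the 44 apoptosis genes, 43 reached a mean of 10 normalized reads and were tested. Silencing of SAM68 was accompanied by a rise of FAS, BMF and CASP2 and by a fall of BCL2A1, RIPK1, TNFRSF10D, BID and BCL2L2, at an adjusted p under 0.05 (limma on log2 values with the Benjamini-Hochberg adjustment over all 18849 loci tested). The largest change was the fall of BCL2A1, to 4.23-fold below the control. Thus 3 of 43 genes (6.98%) rose, against 4.47% of all loci tested, and 5 of 43 (11.6%) fell, against 6.23% of all loci. The counts are small and the shares were not compared by a test, so the counts alone do not set the apoptosis genes apart from the other loci. The median log2 fold change of the 43 genes was 0.022, and that of all loci was 0.0050. The other 35 genes had log2 fold changes from -0.33 to 0.65 and adjusted p from 0.0994 to 0.984.

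By the textbook role of the protein, the 26 pro-apoptotic genes held 3 that rose (FAS, BMF and CASP2) and 1 that fell (BID), with a median log2 fold change of 0.12. Of the 10 anti-apoptotic genes tested, none rose and 3 fell (BCL2A1, TNFRSF10D and BCL2L2), with a median of -0.07. The 7 genes with another or a mixed role held 1 that fell, RIPK1. The difference between the sides was not tested. The values of the 3 si-SAM68 libraries lay wholly above those of si-CTRL in 7 of the 43 genes and wholly below in 10, against 16.6% and 17.3% of all loci. At an unadjusted p of at most 0.05 and a change of at least 1.5-fold, which are the thresholds of the study, BMF and TNFSF10 were higher and BCL2A1 was lower. Those thresholds were applied here to the limma fit and were passed upward by 2.83% and downward by 4.83% of all loci. The study used its own analysis, so these 3 genes are not its calls.

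**Figure D1:**
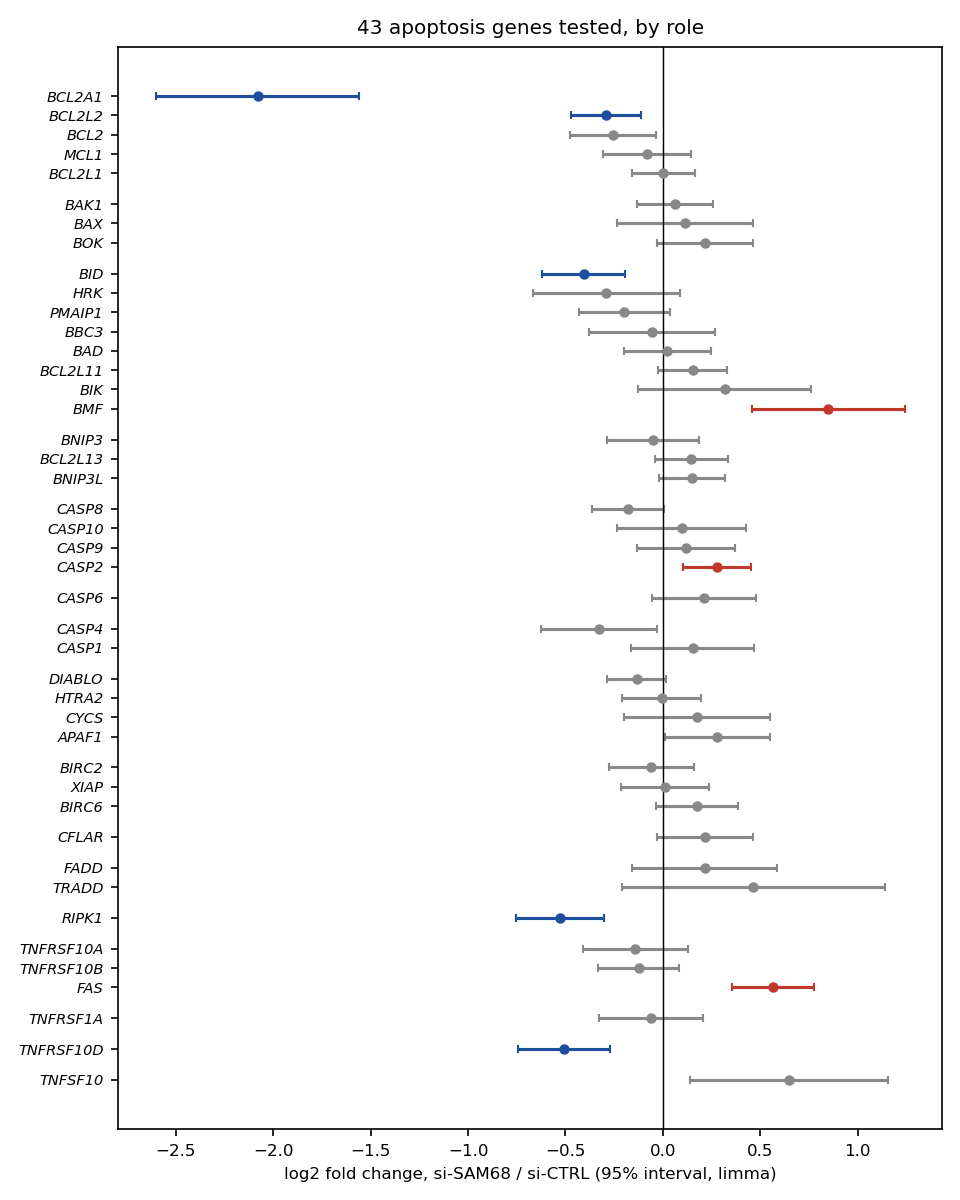
Log2 fold change (si-SAM68 over si-CTRL) of the 43 apoptosis genes tested, with 95% intervals from limma, grouped by role from the BCL2 proteins at the top to the death ligand at the bottom. Blue marks the 5 genes that fell, red the 3 that rose and grey the 35 others, and BCL2A1 at -2.08 stands apart from all of them.

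Among the 5 anti-apoptotic BCL2 proteins, BCL2A1 (chr15:80253233-80263643, hg19) moved most. BCL2A1 encodes a short-lived protein that binds BH3-only proteins, and it is a known target gene of NF-kB. It was read at 1424, 831 and 1356 normalized reads in si-CTRL and at 199, 325 and 324 in si-SAM68. Every si-SAM68 library was therefore below every control, although the second control lay well under the other two. The mean fell from 1203 ± 324 (SD, n = 3) to 283 ± 72.1, and the log2 fold change was -2.08 ± 0.23 (SE, adjusted p = 0.0010). Because these are bulk samples, fewer cells that make the transcript and less transcript per cell cannot be told apart. Per kilobase of annotated exon, BCL2A1 went from 1105 to 260 normalized reads, so that it started below BCL2L1 (1517) and far below MCL1 (14225), and above BCL2 (70.9).

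BCL2L2, which encodes BCL-W, is counted at a locus that also holds PABPN1 and their readthrough transcript (chr14:23775971-23795394, hg19). This locus gave 1352, 1351 and 1388 normalized reads in si-CTRL and 1154, 1097 and 1087 in si-SAM68. The groups did not overlap, and the fall was 1.23-fold (log2 fold change -0.29 ± 0.081, SE, adjusted p = 0.0456). How much of it came from BCL2L2 itself cannot be read from a joint count. BCL2, the founding member of the family, was read at 797 to 881 in si-CTRL and 645 to 756 in si-SAM68, without overlap but with an adjusted p of 0.130 (log2 fold change -0.26). MCL1, which neutralizes BAK1 and BH3-only proteins, was read at 56579 to 68032 and 51888 to 64092 (-0.08, adjusted p = 0.647).

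BCL2L1 (chr20:30252256-30311802, hg19) was read at 5053, 4908 and 5122 normalized reads in si-CTRL and at 4765, 5129 and 5235 in si-SAM68. The groups overlapped, and the means were 5028 ± 110 (SD, n = 3) and 5043 ± 246. The log2 fold change was 0.0035 with a 95% interval from -0.16 to 0.17 (adjusted p = 0.984), so that the total could have changed within that interval without being detected. The table counts whole genes and does not separate the splice forms. The 2 forms, as annotated by GENCODE release 29 (GRCh38), share the same downstream exon and use 2 alternative 5′ splice sites in the exon before it. The junctions are shown because reads across them tell the forms apart, with the upstream exon in capitals and the shared exon in lower case.
BCL-XL: GAGAACGGCGGCTGGgatacttttgtggaa
BCL-XS: CAGAGCTTTGAACAGgatacttttgtggaa
The long form ends its upstream exon at position 31721655 and the short form at position 31721844 of chromosome 20 (minus strand), and both continue at 31666086. The short form lacks 189 exon bases, or 63 of the 233 residues of BCL-XL, and has 170 residues. Of the 2610 exonic bases of these transcripts, 2383 are common to both, so that a shift between the forms would change the gene count little, and it was not analysed here.

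The pore formers did not pass the test. BAX was read at 3015 to 4949 normalized reads in si-CTRL and 4106 to 4718 in si-SAM68 (log2 fold change 0.11, adjusted p = 0.687). BAK1 had 1590 to 1675 and 1607 to 1869 (0.06, adjusted p = 0.681), and BOK, their relative, had 2413 to 3103 and 3052 to 3616 (0.21, adjusted p = 0.244). The BAX locus lies within the interval of a locus that holds FTL and has far more reads, so that reads may have been shared where the counting did not use strand. The loci of BAD, HTRA2, CASP6 and TNFRSF1A overlap in part with other loci that have more reads than they do (GPR137, AUP1, MCUB and a locus that holds GAPDH).

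Of the 8 BH3-only genes, BMF rose and BID fell. BMF, whose protein is known to be held at the cytoskeleton until it is released (chr15:40380094-40401085, hg19), was read at 82.5, 76.5 and 62.7 normalized reads in si-CTRL and at 142, 142 and 117 in si-SAM68. All 3 si-SAM68 libraries were above all controls, and the level rose 1.80-fold (log2 fold change 0.85 ± 0.18, SE, adjusted p = 0.0158). BMF was among the least read of the BH3-only genes, with 13.6 normalized reads per kilobase of exon in si-CTRL and 24.5 in si-SAM68.

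BID (chr22:18216906-18257431, hg19) encodes the protein that caspase-8 cleaves to carry the death receptor signal to mitochondria. It was read at 2355, 2614 and 2834 normalized reads in si-CTRL and at 2083, 1989 and 1811 in si-SAM68. The groups did not overlap, and BID fell 1.32-fold (log2 fold change -0.41 ± 0.095, SE, adjusted p = 0.0261). With the replicate number as a block its adjusted p was 0.0533. A locus without a symbol that overlaps the end of BID had 405 to 475 normalized reads in si-CTRL and 430 to 458 in si-SAM68.

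The other 6 BH3-only genes did not pass the test. BCL2L11 (BIM), a broad activator of the pore formers, was higher in every si-SAM68 library (1713 to 1820 against 1509 to 1643, adjusted p = 0.253). HRK was lower in every si-SAM68 library (89.4 to 113 against 116 to 146, adjusted p = 0.304). PMAIP1 (NOXA), which counters MCL1, and BBC3 (PUMA), which binds all anti-apoptotic BCL2 proteins, had log2 fold changes of -0.20 and -0.05, with adjusted p of 0.256 and 0.849, BIK had 0.32 (adjusted p = 0.335) and BAD had 0.02 (adjusted p = 0.915). BCL2L13, BNIP3 and BNIP3L, relatives that act as receptors for the removal of mitochondria, had log2 fold changes of 0.15, -0.05 and 0.15, with adjusted p of 0.238 or more.

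**Figure D2:**
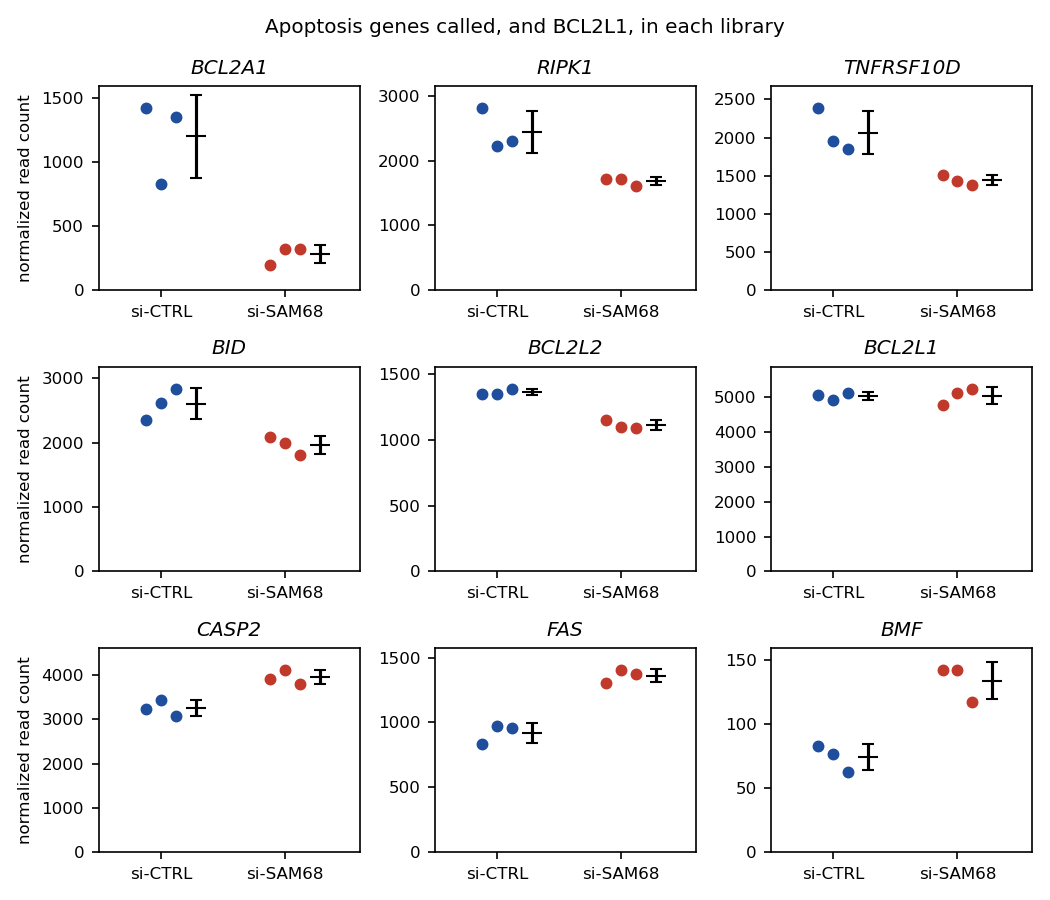
Normalized read count (linear axis from 0) in each library for the 8 genes called and for BCL2L1. Dots are the 3 si-CTRL (blue) and 3 si-SAM68 (red) libraries with replicates 1 to 3 from left to right, and the bars beside them give the mean and SD. The groups do not overlap in any of the 8 genes called, and they do in BCL2L1.

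Among the caspases, CASP2 rose. CASP2 encodes an initiator caspase that is activated by the PIDDosome (chr7:142985308-143033054, hg19), and it was read at 3243, 3442 and 3083 normalized reads in si-CTRL and at 3921, 4117 and 3809 in si-SAM68. Every si-SAM68 library was above every control, by 1.21-fold in the fit (log2 fold change 0.28 ± 0.078, SE, adjusted p = 0.0481). The adjusted p was 0.0556 with the replicate block and 0.0531 with the quasi-likelihood test of edgeR on the recovered reads, so that this call lies at the threshold.

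The other members of the caspase list did not pass. CASP8, the initiator at death receptors, was lower in every si-SAM68 library (1021 to 1108 against 1195 to 1239), with a log2 fold change of -0.18 (adjusted p = 0.205). CASP9, the initiator of the apoptosome, had 0.12 (adjusted p = 0.531), CASP10 had 0.10 (adjusted p = 0.715) and the effector CASP6 had 0.21 (adjusted p = 0.291). The inflammatory caspase CASP4 was read at 3317 to 4951 in si-CTRL and 2955 to 3256 in si-SAM68, without overlap (-0.33, adjusted p = 0.146), and CASP1 was read at 134 to 144 and 139 to 169 (0.15, adjusted p = 0.526).

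Downstream of the pore, APAF1, the scaffold of the apoptosome, was read at 2200 to 3082 normalized reads in si-CTRL and 3179 to 3431 in si-SAM68 (log2 fold change 0.28, adjusted p = 0.170). CYCS (cytochrome c), whose processed pseudogenes may share its reads, had 0.18 (adjusted p = 0.543). HTRA2, a protease that antagonizes IAP proteins, had -0.0046 (adjusted p = 0.982). DIABLO, which binds IAP proteins and is counted at a locus joined with VPS33A, had -0.13 (adjusted p = 0.229). The inhibitors of caspases did not pass either, with log2 fold changes of 0.01 for XIAP, -0.06 for BIRC2, 0.18 for BIRC6 and 0.21 for CFLAR, the inhibitor of caspase-8, and with adjusted p from 0.244 to 0.960. CFLAR was the only anti-apoptotic gene whose si-SAM68 libraries (445 to 486) were all above the controls (362 to 426).

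In the death receptor pathway, the receptor FAS rose while the decoy TNFRSF10D and the kinase RIPK1 fell. FAS (chr10:90729553-90776817, hg19), the receptor of FAS ligand, was read at 834, 972 and 957 normalized reads in si-CTRL and at 1304, 1405 and 1376 in si-SAM68. The groups were separated by more than their own ranges, and FAS rose 1.48-fold (log2 fold change 0.57 ± 0.094, SE, adjusted p = 0.0063). Loci that overlap FAS did not move with it, as STAMBPL1 was read at 988 to 1026 in si-CTRL and 867 to 1052 in si-SAM68, and ACTA2 at 247 to 321 and 147 to 183. Its ligand gene FASLG was at 0 in all 6 libraries.

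RIPK1 (chr6:3064122-3115421, hg19) encodes the kinase that steers the signal of the TNF receptor towards survival or death. It was read at 2811, 2220 and 2295 normalized reads in si-CTRL and at 1717, 1723 and 1614 in si-SAM68. The 3 si-SAM68 values were close together and below all controls, and RIPK1 fell 1.44-fold (log2 fold change -0.53 ± 0.10, SE, adjusted p = 0.0119). Its adaptors TRADD (log2 fold change 0.46, adjusted p = 0.354) and FADD (0.22, adjusted p = 0.441), and the receptor TNFRSF1A (-0.06, adjusted p = 0.790), did not pass the test. TRADD was read at 52.5 to 127 in si-CTRL, of which the lowest was replicate 1, and its locus overlaps one of FBXL8 and HSF4 with more reads.

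TNFRSF10D is a receptor of TRAIL without a working death domain and thus a decoy (chromosome 8, hg19, positions 22993106 to 23021543). It was read at 2390, 1956 and 1854 normalized reads in si-CTRL and at 1511, 1439 and 1385 in si-SAM68. The groups did not overlap, and the fall was 1.42-fold (log2 fold change -0.51 ± 0.11, SE, adjusted p = 0.0161). The signalling receptors TNFRSF10A and TNFRSF10B, its neighbours, had log2 fold changes of -0.14 (adjusted p = 0.487) and -0.12 (adjusted p = 0.427). The other decoy, TNFRSF10C, lay below the minimum for testing, with 3.87 to 7.50 normalized reads in si-CTRL and 2.76 to 13.4 in si-SAM68. These receptor genes are paralogs, and how reads that fit several of them were counted is not given in the sources used here.

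TNFSF10, which encodes TRAIL, was read at 65.0, 74.6 and 120 normalized reads in si-CTRL and at 119, 140 and 136 in si-SAM68. The third control was just above the lowest si-SAM68 library, and the log2 fold change of 0.65 ± 0.23 (SE) had an adjusted p of 0.0994. Without that control TNFSF10 passed the test (adjusted p = 0.0286), and without any 1 of the other 5 libraries it did not.

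The 8 calls differed in how far they rested on single libraries. BCL2A1 and FAS passed with each of the 6 libraries left out in turn, at adjusted p up to 0.0110 and 0.0430. RIPK1 was lost without si-SAM68 replicate 3 (adjusted p = 0.0705). TNFRSF10D was lost without si-SAM68 replicate 2 (0.0638) or 3 (0.0866), and BMF without si-CTRL replicate 3 (0.0527) or si-SAM68 replicate 1 (0.0658) or 2 (0.0693). BID, BCL2L2 and CASP2 were lost without any single library except si-CTRL replicate 1, with adjusted p up to 0.118, 0.174 and 0.205. The replicate numbers may pair the libraries, as those of the same number deviated together, but no source used here states a pairing. With the replicate number as a block, BID (0.0533), BCL2L2 (0.0725) and CASP2 (0.0556) were lost and the number of apoptosis genes that fell went from 5 to 3. Without a minimum on the mean, BCL2L2 (0.0667) and CASP2 (0.0723) were lost, and without the trend of the variance in limma BCL2A1, FAS and BMF still passed and the other 5 did not (0.0588 to 0.114). Si-CTRL replicate 1 was the lowest of the 6 libraries in 17 of the 43 genes, among them BAX, BIK, APAF1, CYCS, FADD and TRADD, and the part of this library in their values was not tested. Without it all 8 calls remained and no other apoptosis gene passed.

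**Figure D3:**
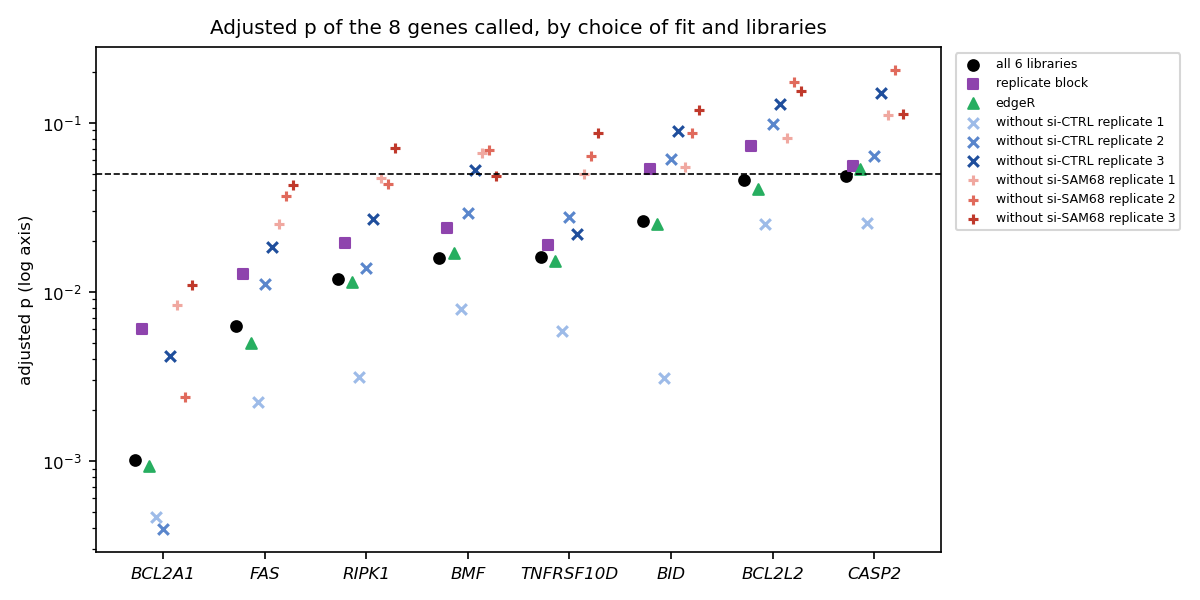
Adjusted p (log axis) of the 8 genes called, with all 6 libraries, with the replicate block, with edgeR on recovered reads, and in the 6 fits that omit 1 library each. The dashed line is 0.05. All symbols of BCL2A1 and FAS lie below it, while BID, BCL2L2 and CASP2 lie above it in 5 of 6 fits with a library left out.

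The seed of each siRNA was looked for in the 3′ UTR of each gene as 7 letters of the sense strand (GACGTTA for siSAM68_1, TGCTGAT for siSAM68_2, ATATCTG for siSAM68_3 and TATTGGG for siSAM68_4), in 1 GENCODE transcript a gene and on the transcribed strand. At least 1 match was present in 17 of 43 apoptosis genes (39.53%) and in 3845 of 13141 tested genes with a 3′ UTR (29.26%). The 3′ UTRs of the apoptosis genes ran from 113 to 12714 bases, and length was not taken into account. Of the 5 genes that fell, BCL2L2, RIPK1 and TNFRSF10D held a match while BCL2A1 and BID held none. None of the 3 genes that rose held one, and 14 of the 35 other genes did. The matches of BCL2L2 and RIPK1 are printed with their flanks (GRCh38, plus strand) and with the letters that match in capitals.
BCL2L2, siSAM68_2, chr14:23309942-23309966: gggcataagTGCTGATctagaatac
BCL2L2, siSAM68_4, chr14:23310848-23310872: tgtcttacaTATTGGGgttcagggt
RIPK1, siSAM68_2, chr6:3114235-3114259: aacaggaaaTGCTGATctctacccc
A match shows only that the letters are there. Over the 43 genes the median log2 fold change was 0.10 with a match and -0.00055 without, and the part of the seeds in the falls of BCL2L2, RIPK1 and TNFRSF10D was not tested.

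Other genes of these families, and genes whose proteins bind their members, were taken from lists of other genes. The list of other BCL2 relatives also held genes of the BNIP and BAG names, and 2 of its 8 genes tested fell. BNIP2 went from 4194 ± 76.0 to 2777 ± 143 normalized reads (SD, n = 3, log2 fold change -0.60, adjusted p = 0.0017). BAG3, a co-chaperone that binds BCL2, went from 2660 ± 363 to 1771 ± 212 (-0.59, adjusted p = 0.0147). BCL2L12 (0.27, adjusted p = 0.206) and BCL2L15 (0.56, adjusted p = 0.424), on the same list, did not pass. Of the 4 other IAP genes and the IAP antagonist, NAIP fell (-0.58, adjusted p = 0.0071), although it has near-identical copies that may share its reads. BIRC3 had 0.50 with an adjusted p of 0.0600, and BIRC5 (survivin) had -0.04. Of the 15 other death ligands, receptors and adaptors tested, DEDD2 alone passed (-0.43, adjusted p = 0.0239). DEDD2 was lost without si-CTRL replicate 3 or any 1 si-SAM68 library (adjusted p up to 0.109), and BAG3 was lost without si-SAM68 replicate 2 or 3 (up to 0.0834). BNIP2 and NAIP passed in all 6 such fits.

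Around the inflammatory caspases, 7 genes of the inflammasome and pyroptosis list were tested. NLRP3, an inflammasome sensor, fell from 915 ± 113 to 434 ± 49.8 normalized reads (SD, n = 3, log2 fold change -1.08, adjusted p = 0.0012). Among the substrates of caspase-1, IL1B fell from 3406 ± 371 to 1338 ± 196 (-1.35, adjusted p = 3.2e-04), while IL18 rose from 38.5 ± 6.12 to 121 ± 7.94 (1.63, adjusted p = 0.0012). These 3 genes passed with each library left out. The inflammasome adaptor PYCARD was at 0 in every library, and GSDMD and GSDME, which form the pore of pyroptosis, had log2 fold changes of 0.10 and -0.04. Of the 10 listed genes that respond to NF-kB, 6 fell (CXCL8, TNFAIP3, IL6, ICAM1, SOD2 and RELB, log2 fold changes from -1.46 to -0.30), against 6.23% of all loci, and all 10 were lower in every si-SAM68 library than in every control, against 17.3% of all loci. This list was chosen with earlier results of these data known and does not hold every gene that responds to NF-kB. Of such genes kept elsewhere, BCL2A1 fell, while BIRC3 had a positive log2 fold change of 0.50 and did not pass (limma adjusted p = 0.0600). RELB was lost with the replicate block (adjusted p = 0.0655). Without si-SAM68 replicate 1 or 3, TNFAIP3, IL6, SOD2 and RELB did not pass (adjusted p up to 0.139), and RELB passed only when si-CTRL replicate 1 was the library left out. The same 4 genes were lost without the trend of the variance in limma (adjusted p from 0.0619 to 0.0851), where CXCL8 and ICAM1 still passed.

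**Figure D4:**
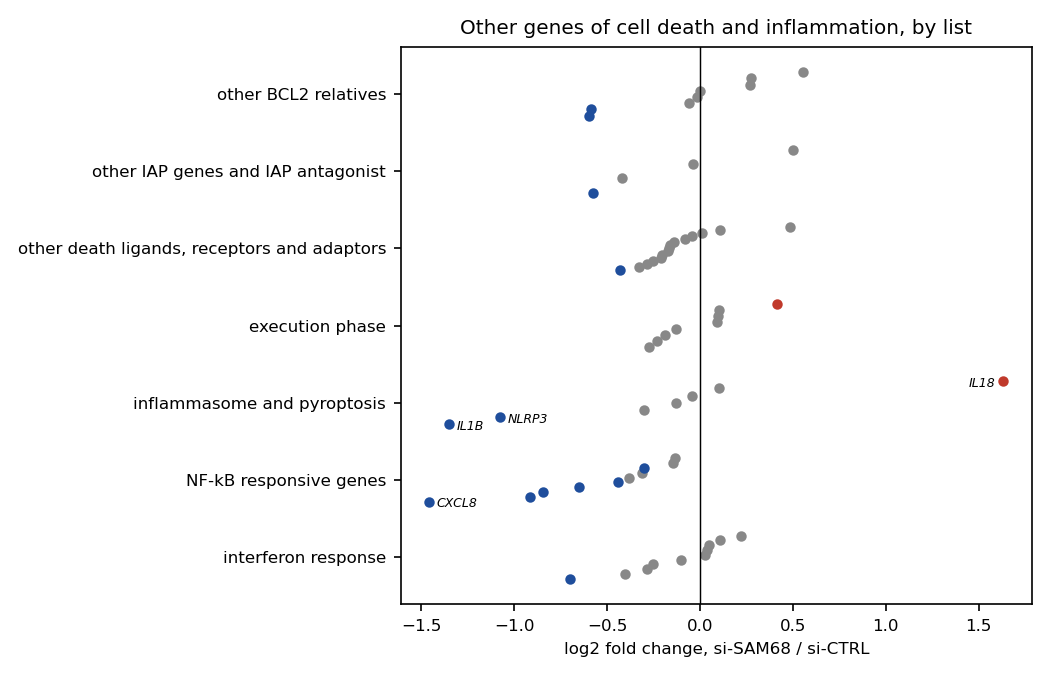
Log2 fold change (si-SAM68 over si-CTRL) of other genes tested, with 1 row of dots for each of the lists shown and the dots of a row spread upward in the order of their values. Blue marks genes that fell, red genes that rose and grey the others. Names are given beyond 1 in either direction, where CXCL8, IL1B and NLRP3 fell and IL18 rose.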

How the data were processed

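RNA of 3 si-CTRL and 3 si-SAM68 libraries of MDA-MB-231 was sequenced after poly(A) selection. The signal deposited by the authors is a read count for each FAST DB locus (hg19) after scaling by DESeq2 size factors. The notes of the submitters name STAR 2.4.0, SAMtools and Picard, and the strand setting of the counting is not given in the sources used here. The labels and the study's methods differ in medium, extraction kit and time of harvest. Dividing by the step of each library gave whole reads for 100% of the values (tolerance 0.01).

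The 18849 loci that averaged 10 or more entered limma 3.58.1 (R 4.3.3, lmFit and eBayes with a trend) on log2(value + 1), with the Benjamini-Hochberg adjustment over all of them and a call at an adjusted p under 0.05. Fold changes are on that scale and understate those of low genes. Replicates of 1 group differed by more than sampling noise. As no source says that replicates came from separate cultures, the p-values measure the spread between these libraries, which may be technical. Same-numbered libraries of the groups deviated together (correlations 0.105, 0.231 and 0.125, against -0.125 to 0.0069 for other pairs). Deviations were taken from the mean of each group, so positive values for same-numbered pairs bring lower ones for other pairs. A fit with the replicate block was also made. Other alternatives were pseudocounts of 0.1 and 5, no minimum or 50, TMM scaling, eBayes without a trend, edgeR 4.0.16 and DESeq2 1.42.0 on the recovered reads, each library left out, and the study's thresholds. The fit was tested on simulated data. Members and lists were chosen with earlier results of these data known. All 44 members are named, with every library's value for those called and for BCL2L1. TNFSF10 and TNFRSF10C were given in full after their values were seen. Other genes are given as counts per list and, where called, as values, and those named beside them were chosen after their values were seen. Of 104 other genes, 102 were found, and some of them are not reported here. Matches to seeds and splice forms come from GENCODE release 29 (GRCh38), and those coordinates are not hg19. Exon lengths come from the same annotation.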

Additional observations from a re-analysis of the deposited data

How the results depend on the processing

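KHDRBS1 fell under every alternative run. The 5 apoptosis genes called lower became 1 with eBayes without a trend (BCL2A1), 3 with the replicate block and 1 at the study's thresholds (BCL2A1). The pro-apoptotic gene called lower (BID) was lost in these 3 settings, which gave 0 each, and the 3 anti-apoptotic genes called lower became 1 without a trend and 1 at the study's thresholds. With each library left out, 1 to 3 apoptosis genes were called higher and 1 to 5 lower, of which 1 to 3 pro-apoptotic genes were higher and 0 to 1 lower, and 0 anti-apoptotic genes were higher and 1 to 3 lower. The log2 fold change of BCL2L1 turned negative without si-CTRL replicate 2 (-0.01384), si-SAM68 replicate 2 (-0.009355) or si-SAM68 replicate 3 (-0.02401), reached 0.04376 without si-SAM68 replicate 1, and was called in no fit. The replicate block changed the calls of BID, BCL2L2 and CASP2 among the apoptosis genes and of RELB (adjusted p = 0.0655) and PERP, which passed with it (0.0259, against 0.0596), among the other genes, and it changed no other call of these genes. Of the other genes, 15 were called lower and 3 higher, against 7 and 2 without a trend. Among those lost there were BAG3, DEDD2, TNFAIP3, IL6, SOD2, RELB, MX1 and SESN1. Over all loci, 2017 were called, against 899 without a trend, 625 to 2839 with a library left out and 2789 with DESeq2, which gave no adjusted p for 2209 loci. The cause of these differences was not tested. The gene-level table limits what can be said of BCL2L1, and 3 libraries a group limit calls of small changes.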

Other observations

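Genes beside the core pathway gave the following values. CDKN1A, the inhibitor of cyclin-dependent kinases, fell from 5831 ± 265 to 3542 ± 64.8 normalized reads (SD, n = 3, log2 fold change -0.72, limma adjusted p = 6.9e-04), and it passed with each library left out. SESN1, a stress-responsive regulator of growth signalling, rose from 536 ± 75.1 to 780 ± 32.7 (0.55, adjusted p = 0.0190), and it was lost without any 1 si-SAM68 library (adjusted p up to 0.0972).

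Of 8 genes of the execution phase, XKR8, the scramblase that caspases activate to expose phosphatidylserine, rose from 1347 ± 50.4 to 1795 ± 50.2 normalized reads (SD, n = 3, log2 fold change 0.41, limma adjusted p = 0.0120), and it was lost without any 1 si-SAM68 library (adjusted p up to 0.0550). Of 10 interferon response genes, MX1 alone passed, falling from 5849 ± 1102 to 3568 ± 441 (-0.70, adjusted p = 0.0147), and it was lost without si-SAM68 replicate 1 or 3 (adjusted p up to 0.0778). The median log2 fold changes of these lists were -0.02 for the execution phase and -0.04 for the interferon response, against 0.0050 for all loci tested.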
